A study of Rattus norvegicus with 30 samples.

Results

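The comparison of shock-resistant (SR) rats with their yoked saline (YSR) rats asked how gene expression differs between METH taking and saline when the foot-shocks are matched. It used 12 of the 30 libraries of the series, 1 per rat, namely all 7 libraries whose title begins with SR and all 5 whose title begins with YSR. All rats were adult, male, wild type Sprague-Dawley rats. SR rats self-administered METH for 21 days and then for 8 days on which part of their lever presses brought a foot-shock, and they kept pressing under this punishment. YSR rats took saline on the same schedule and received the shocks of the SR rat to which each was connected. Which YSR rat belonged to which SR rat is not in the labels, so the rats were compared as unpaired. The phenotype of an SR rat was its own behavior and not assigned, so METH and resistance to shock cannot be told apart in this comparison. Shocks followed the presses of the SR rat and not those of the YSR rat. METH and control over the shocks therefore cannot be told apart either. With 7 SR and 5 YSR libraries, not every SR rat has its yoked rat here, so shocks were not matched rat for rat. Shock-sensitive METH rats (SS, n = 6), their yoked saline rats (YSS, n = 5) and unshocked saline rats (CT, n = 7) are given beside it.

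Methamphetamine is a psychostimulant that releases dopamine and noradrenaline from nerve terminals. The hippocampus serves learning and memory and receives input from noradrenergic and dopaminergic neurons. Foot-shock is itself a stressor that changes gene expression in the brain, which is why a yoked animal that receives the same shocks without the drug is the usual control.

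The methods of the study describe whole hippocampus, whereas the tissue field of the labels names the dorsal striatum and their protocol the hippocampus. The labels and the abstract of the study place the dissection 2 h after the last session, and its methods place it directly after the session. The deposited counts identify genes by Ensembl identifier only, and 0 of 32552 identifiers matched the gene table at hand. Markers of hippocampus, striatum or single cell types therefore could not be looked up, the labelled tissue was not checked, and genes are described here by identifier, position and class. Positions are those of the deposited tables, whose genome build is not given in the sources used here. Total counts lay between 16329258 and 18737037 in SR rats (median 16946598) and between 14584340 and 19997820 in YSR rats (median 17110757). Between 19547 and 20042 genes had at least 1 count in an SR library, and between 19294 and 20105 in a YSR library.

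The titles also carry a code, XII or XIII, taken here as the cohort, and a letter, L or R, which the sources used here do not explain. Cohort XII held 4 SR and 3 YSR rats and cohort XIII held 3 SR and 2 YSR rats. All 5 YSR libraries had the letter R, whereas the SR replicates XIII-L09, XII-L05 and XII-L07 had the letter L and the other 4 SR replicates had R. The letter L was thus absent from YSR. The first principal component of log2 CPM over the 12 libraries carried 22.4% of the variance and did not separate the groups. On it, YSR XIII-R08 stood at 19.2, on the side of SR XIII-L09, XIII-R07, XII-L05 and XII-R07 (between 13.0 and 25.0), while the other 4 YSR rats lay between -21.7 and -11.4, SR XII-R05 at -22.6 and SR XIII-R09 at -10.4. SR XII-L07 stood at -2.51. The second component carried 12.5% of the variance. On it, SR rats of cohort XII lay between -27.6 and -4.28 and YSR rats of cohort XII between -2.80 and 7.64. In cohort XIII the groups overlapped, with SR rats between 5.77 and 18.4 and YSR rats at -1.06 and 18.1. For a part of the results, values with the letter R alone or without YSR XIII-R08 are given beside those of all rats.

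Of 15797 genes tested by edgeR's quasi-likelihood test, 4 differed between SR and YSR rats at an adjusted p-value under 0.05 (0.0253% of the genes tested), 1 of them higher (0.00633%) and 3 lower (0.019%) in SR rats. This number depended on the method and the rats, since DESeq2 gave 32 genes at an adjusted p-value under 0.05 and edgeR between 0 and 12 with 1 library left out. Without adjustment, 1291 genes passed a p-value of 0.05 (8.17%), which were split into 572 higher (3.62%) and 719 lower (4.55%) genes. When the change also had to be at least 1.7-fold, 72 higher (0.456%) and 34 lower (0.215%) genes were left. Every SR rat was above every YSR rat in 26 of all genes tested (0.165%) and below every YSR rat in 60 (0.38%). The median log2 fold change over all genes tested was 0.001. In tissue RNA, fewer cells of a type and less RNA per cell cannot be told apart as sources of a lower level.

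ENSRNOG00000012371, on chromosome 19 from 636545 to 645937 with 7 exon blocks on the minus strand, had the smallest p-value. SR rats had between 9.06 and 12.3 CPM (median 10.7). YSR rats had 14.8 and 14.3 CPM in XIII-R08 and XIII-R10, and 16.5, 18.0 and 12.4 CPM in XII-R02, XII-R06 and XII-R10. All 7 SR rats were below all 5 YSR rats, by a narrow margin between SR XII-L05 and YSR XII-R10. The mean was 10.5 ± 1.07 CPM (SD, n = 7) in SR and 15.2 ± 2.13 CPM (SD, n = 5) in YSR rats, a log2 fold change of -0.54 (standard error 0.09, adjusted p = 0.0159 by edgeR's quasi-likelihood test). By an exact two-sided permutation test, p was 0.00126, which is as small as the 792 arrangements of 7 and 5 rats permit. The genes were chosen by edgeR's test on the same 12 rats, so the permutation p-values given here and below are no separate support for them. The log2 fold change was -0.55 within cohort XII, -0.50 within cohort XIII and -0.54 among libraries with the letter R. CT, SS and YSS rats had 12.8 ± 1.39 (SD, n = 7), 12 ± 1.03 (SD, n = 6) and 12.9 ± 0.805 CPM (SD, n = 5), between the means of SR and YSR rats. Choice by SR vs. YSR favors genes in which these groups are the extremes. The place of CT, SS and YSS rats, here and in the genes below, is therefore a description.

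ENSRNOG00000025463, on chromosome 8 from 57248620 to 57255263 with 2 exon blocks on the minus strand, was the most abundant of the 4 genes in CPM. SR rats had between 192.2 and 226.9 CPM (median 209.5). YSR rats had 242.0 and 263.2 CPM in XIII-R08 and XIII-R10, and 255.4, 285.8 and 259.6 CPM in XII-R02, XII-R06 and XII-R10. All SR rats were again below all YSR rats (exact two-sided permutation test, p = 0.00126, again as small as possible). Its means were 209.9 ± 10.4 CPM (SD, n = 7) and 261.2 ± 15.9 CPM (SD, n = 5), a log2 fold change of -0.32 (standard error 0.06, adjusted p = 0.0317 by edgeR's quasi-likelihood test). It was -0.35 within cohort XII, -0.27 within cohort XIII and -0.36 with the letter R alone. CT, SS and YSS rats had 242.9 ± 19.6 (SD, n = 7), 245.4 ± 22.6 (SD, n = 6) and 242.3 ± 16.0 CPM (SD, n = 5). The mean of SR rats was thus the lowest of the 5 groups and that of YSR rats the highest, again a description.

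The third gene that was lower in SR rats lies on chromosome 9 from 10952374 to 10954681, with 2 exon blocks on the plus strand. SR rats had between 1.94 and 4.25 CPM (median 3.02), from between 33 and 72 counts. YSR rats had 7.62 and 6.64 CPM in XIII-R08 and XIII-R10, and 9.38, 11.1 and 8.32 CPM in XII-R02, XII-R06 and XII-R10, from between 119 and 185 counts. The groups did not overlap (exact two-sided permutation test, p = 0.00126, again as small as possible). The means of 3.08 ± 0.771 CPM (SD, n = 7) and 8.61 ± 1.71 CPM (SD, n = 5) gave the largest change of the 4 genes, a log2 fold change of -1.48 (standard error 0.28, adjusted p = 0.0438 by edgeR's quasi-likelihood test), or 2.79-fold. It was -1.74 within cohort XII, -1.09 within cohort XIII and -1.43 with the letter R alone. The difference between the cohorts did not pass (log2 difference -0.65, adjusted p = 0.933 by edgeR's quasi-likelihood test). SR rats had values like those of CT rats, which lay between 1.30 and 4.02 CPM (2.80 ± 0.925, SD, n = 7). In this gene it was the YSR rats that stood apart, although YSS XIII-R04, at 7.45 CPM, reached their range. The gene did not pass with cohort as a covariate (adjusted p = 0.0577 by edgeR's quasi-likelihood test), and it passed in 2 of the 12 fits that left 1 library out.

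ENSRNOG00000014751, on chromosome 4 from 150202058 to 150244372 with 20 exon blocks on the minus strand, was the gene that was higher in SR rats. SR rats had between 13.1 and 21.5 CPM (median 19.5). YSR rats had 13.6 and 10.8 CPM in XIII-R08 and XIII-R10, and 11, 10.3 and 13.3 CPM in XII-R02, XII-R06 and XII-R10. The groups overlapped through 1 rat, since SR XII-R05, with 13.1 CPM, was below YSR XIII-R08 and XII-R10 and the other 6 SR rats were above every YSR rat. The means were 18.7 ± 2.79 CPM (SD, n = 7) and 11.8 ± 1.51 CPM (SD, n = 5), a log2 fold change of 0.67 (standard error 0.12, adjusted p = 0.0195 by edgeR's quasi-likelihood test). An exact two-sided permutation test returned p = 0.00505. It was 0.63 within cohort XII, 0.71 within cohort XIII and 0.65 with the letter R alone. CT, SS and YSS rats had 16.0 ± 2.91 (SD, n = 7), 16.6 ± 1.64 (SD, n = 6) and 14.5 ± 1.48 CPM (SD, n = 5).

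**Figure D1:**
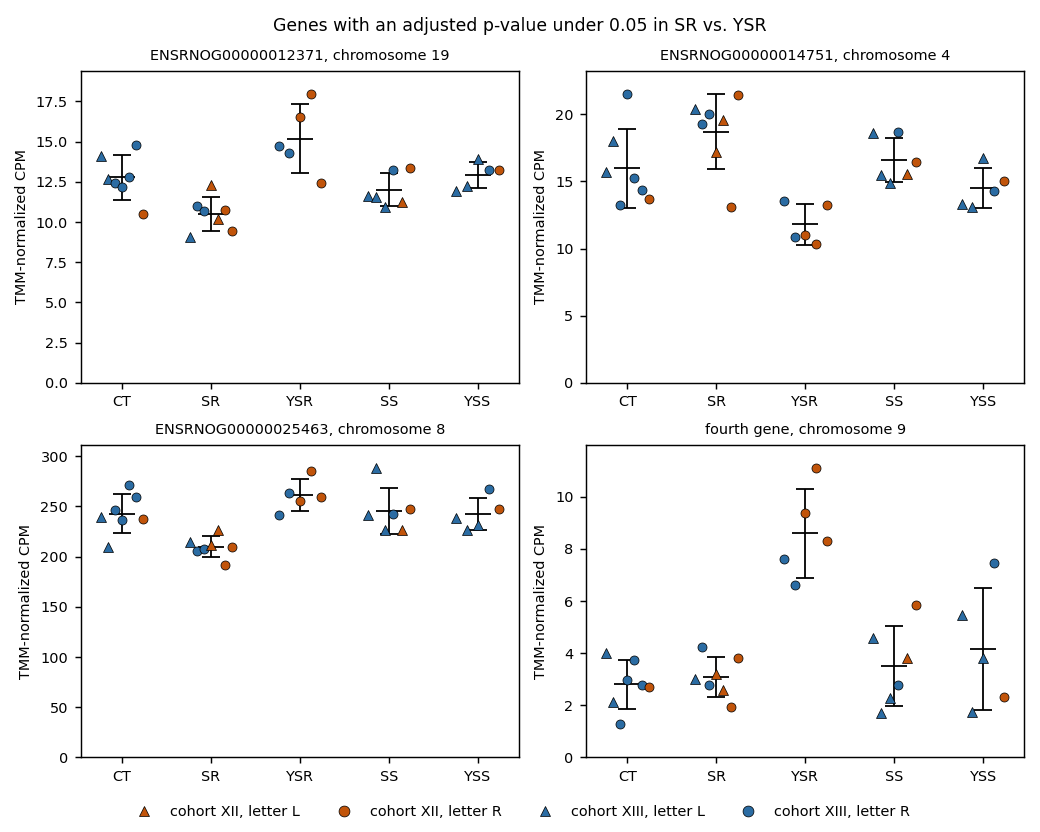
TMM-normalized CPM of the 4 genes with an adjusted p-value under 0.05 in SR vs. YSR, in every rat of the 5 groups, with a linear axis from 0; colors give the cohort, shapes the letter, and bars the mean ± SD. SR and YSR rats do not overlap in 3 genes and overlap through SR XII-R05 in ENSRNOG00000014751, and in the gene on chromosome 9 the YSR rats lie between 6.64 and 11.1 CPM, above all CT, SR and SS rats.

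None of the 4 genes overlapped another gene of the deposited annotation, the nearest one being between 1122 and 68100 bases away. Their adjusted p-values were not stable to the rats included. Of the 12 fits that each left out 1 library, the genes on chromosomes 19, 4, 8 and 9 passed in 9, 8, 6 and 2. Without SR XIII-L09, YSR XII-R02 or YSR XII-R06, 0 genes passed the adjusted threshold of edgeR's test, and the log2 fold changes of the 4 genes without YSR XII-R06 were -0.46, -0.28, -1.37 and 0.63 in the order of chromosomes 19, 8, 9 and 4. In a fit of only the SR and YSR libraries, the genes on chromosomes 19 and 4 did not pass (adjusted p of 0.0734 and 0.07 by edgeR's test) with log2 fold changes of -0.53 and 0.67, and those on chromosomes 8 and 9 did (adjusted p of 0.0222 and 0.00348). In the same contrast of SS and YSS rats, which has no library in common with SR vs. YSR, the log2 fold changes were -0.11 (standard error 0.09), 0.02 (standard error 0.06), -0.24 (standard error 0.30) and 0.19 (standard error 0.12) in the same order. The difference between the contrasts passed the adjusted threshold in none of them (adjusted p of 0.836, 0.666, 0.836 and 0.836 by edgeR's quasi-likelihood test), so the 4 genes were not shown to differ in their response between resistant and sensitive rats.

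The gene with the next smallest p-value among those higher in SR rats was ENSRNOG00000005542, described after its values were seen. It lies on chromosome 6 from 33176778 to 33224997 and has 32 exon blocks. SR XIII-L09, XII-L05 and XII-L07 had 6.09, 4.94 and 6.48 CPM. SR XIII-R07, XIII-R09, XII-R05 and XII-R07 had 0.413, 0.810, 0.118 and 0.182 CPM, and YSR rats had between 0 and 0.266 CPM. High values were thus found in the 3 SR rats with the letter L, and the other SR rats had between 2 and 14 counts. Its log2 fold change of 4.13 (standard error 0.81) did not pass (adjusted p = 0.0534 by edgeR's quasi-likelihood test), and it was 1.32 with the letter R alone. It did pass with DESeq2 (adjusted p = 0.000726) and when all genes of at least 1 count were tested (adjusted p = 0.0278 by edgeR's test). With 1 library left out it passed in 4 of 12 fits, with adjusted p-values of edgeR's test between 0.0113 and 0.263. The count filter left it out of a fit of only the SR and YSR libraries. CT rats, of which 5 of 7 carry the letter R, had between 3.52 and 6.80 CPM, while SS and YSS rats, in which the letter L occurs too, had at most 0.363 and 0.290 CPM. The count filter of the main fit used all 30 libraries, so the high CT values helped this gene to pass it. The part of the letter L in these levels was not tested.

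The same order of rats was found in 23 of the 72 genes that were at least 1.7-fold higher in SR rats, a set that was read out after the values were seen. In these 23 genes each of the 3 SR rats with the letter L was above all 9 other SR and YSR rats. Over all 15797 genes, 121 had this order (0.766%) and 157 the opposite one. The median log2 fold change of the 23 genes was 2.68, and it was 0.29 with the letter R alone, where 1 of them had p under 0.05 before adjustment. Averaged over the 23 genes and set to the mean of YSR rats, log2 CPM were 2.95, 2.55 and 2.80 in SR XIII-L09, XII-L05 and XII-L07 and between 0.05 and 0.15 in the other SR rats. They were between 2.41 and 2.97 in CT rats and at most 0.23 in SS and 0.34 in YSS rats. Since the genes were chosen by this order, the fall with the letter R alone and the high values of the 3 rats follow from the choice. The order did not use CT, SS and YSS rats, but the count filter took all 30 libraries, so genes high in CT rats could pass it through them. The high values of CT rats are thus no separate reading. What the letter stands for, and its part in the result, was not tested.

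Among the 23 genes, 3 followed each other on chromosome 2 between 181987217 and 182038178. The first had 51, 18 and 27 counts in SR XIII-L09, XII-L05 and XII-L07, the second 49, 29 and 41, and the third 101, 65 and 71. The other SR rats had at most 3, 1 and 1 counts in them, and YSR rats at most 1, 8 and 1. CT rats had between 17 and 48, between 27 and 60 and between 69 and 121 counts. These neighbors were thus expressed in the 3 letter L rats and in all CT rats, with at most 8 counts in the remaining SR rats and in YSR rats. The count filter used all groups and could be passed through the CT rats, so their counts are no separate reading.

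The other 49 genes of the list higher in SR rats are those left after the 23 were taken out, so their likeness with and without the letter L follows in part from this split. Their median log2 fold change was 1.0 in all rats and 1.02 with the letter R alone, where 32 of them had p under 0.05 before adjustment. Their mean log2 CPM above the mean of YSR rats lay between 0.57 and 1.31 in SR rats, with XIII-R07 highest and XII-R05 lowest, and between -0.14 and 0.31 in YSR rats, with XIII-R08 highest. These means moved with the first principal component, which did not separate the groups. The 4 SR rats on its positive side had between 1.04 and 1.31 and the other 3 between 0.57 and 0.74, and YSR XIII-R08 was the only YSR rat on the positive side. What this component reflects was not tested. They lay between 0.34 and 0.94 in CT, between 0.22 and 1.04 in SS and between 0.19 and 0.68 in YSS rats. The choice of the genes by SR vs. YSR places YSR rats low, and even so YSR XIII-R08, at 0.31, was above SS XIII-L05 at 0.22 and YSS XIII-R04 at 0.19. Without YSR XIII-R08, the number of genes at least 1.7-fold higher in SR rats was 196 in place of 72, and 63 of the 72 were among them.

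The 34 genes at least 1.7-fold lower in SR rats had a median log2 fold change of -0.89, and -0.85 with the letter R alone. Without YSR XIII-R08, 36 genes met these criteria, and 25 of the 34 were among them. In the 34 genes the rats were placed as follows. Their mean log2 CPM relative to YSR rats lay between -1.09 and -0.70 in SR rats and between -0.06 and 0.12 in YSR rats. CT rats lay between -0.59 and -0.37, SS rats between -0.53 and -0.29 and YSS rats between -0.48 and -0.14. SR rats were below and YSR rats above the other 3 groups in these means. The choice of the genes by SR vs. YSR fixes that these groups are apart, and the position of CT, SS and YSS rats between them is a description.

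**Figure D2:**
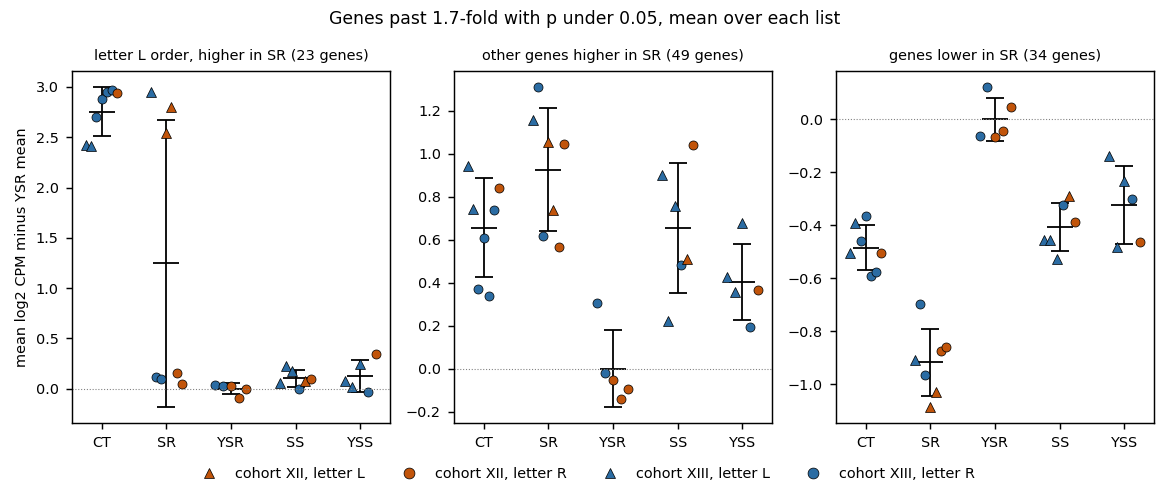
Mean log2 CPM over the genes with p under 0.05 and at least 1.7-fold change in SR vs. YSR, minus the mean of YSR rats, for every rat of the 5 groups; bars are mean ± SD, colors the cohort and shapes the letter. In the left panel (23 genes) the 3 SR rats with the letter L lie between 2.55 and 2.95, with the CT rats, and the other SR rats lie near 0. The count filter used all 5 groups, so genes high in CT rats could pass it through them. The middle panel holds the other 49 higher genes and the right panel the 34 lower genes.

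Both lists were made of genes with low counts. Of the 72 higher genes, 40 had a mean under 1 CPM over the 12 rats and 2 had at least 10 CPM, and of the 34 lower genes 25 were under 1 CPM and 0 reached 10 CPM. Their groups did not overlap in 3 of the 72 and 6 of the 34 genes, against 0.165% (above) and 0.38% (below) of all genes tested. Both lists were chosen on the same rats, so nothing is read from these counts. The change was at least 1.7-fold in each cohort in 42 of the 72 and 10 of the 34. These genes were chosen by their change over both cohorts, so the counts are descriptions. Genes chosen on both cohorts together mostly have the same sign in each (95.1% of the 572 higher and 97.1% of the 719 lower genes), so nothing is read from the signs of the lists. With the letter R alone, 31 of the 72 and 18 of the 34 met both criteria, and 8 of the 72 and 0 of the 34 had the opposite sign.

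Changes in abundant genes were small and mostly downward. A mean log2 CPM over 8 was found in 641 genes. Together they held between 41.3% and 44.2% of the counts of an SR library and between 42.5% and 44.0% of those of a YSR library. These ranges overlapped. Of the 641 genes, 85 were lower (13.3%, against 4.55% of all genes) and 8 higher (1.25%, against 3.62%) in SR rats at an unadjusted p-value under 0.05. Between 6 and 8 log2 CPM, 232 of 2962 genes were lower (7.83%) and 98 higher (3.31%). Below that, the directions were close to even, with 188 lower and 193 higher of 5102 genes between 4 and 6, and more genes higher than lower between 0 and 2 (104 and 62 of 2361). The classes were set after the values were seen. Since CPM also grow with transcript length, the classes were formed per length too, and above 6 log2 CPM per kb of exon 137 of 1307 genes were lower (10.5%) and 17 higher (1.30%). With the letter R alone, 95 of these 1307 genes were lower (7.27%, against 4.20% of all genes) and 43 higher (3.29%, the same as the share of all genes). Within cohort XII 114 were lower (8.72%, against 5.44%) and 44 higher (3.37%, against 5.10%), and within cohort XIII 51 were lower (3.90%, against 2.29%) and 6 higher (0.459%, against 2.13%). Of the 641 genes over 8 log2 CPM, 74 were lower (11.5%) and 9 higher (1.40%) with the letter R alone.

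The shift of the most abundant genes was slight in size. Their median log2 fold change was -0.03, and 69.7% of them were below 0, against 49.6% of all genes tested. It was -0.035 within cohort XII, -0.0251 within cohort XIII, -0.0363 among libraries with the letter R and 0.0042 in SS vs. YSS, where 5 of these genes were lower (0.78%, against 1.97% of all genes) and 13 higher (2.03%, against 2.30%). The number of lower genes was 81 with median-ratio size factors and 88 with DESeq2. It fell to 50 without YSR XII-R06 and to 48 without YSR XII-R10, where 529 and 575 of all genes were lower in place of 719. The number of higher genes lay between 5 and 19 with 1 library left out. It was 19 without SR XIII-R07 (67 lower) and 16 without YSR XIII-R08 (103 lower). Within cohort XIII, 26 were lower (4.06%, against 2.29% of all genes) and 7 higher (1.09%, against 2.13%).

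**Figure D3:**
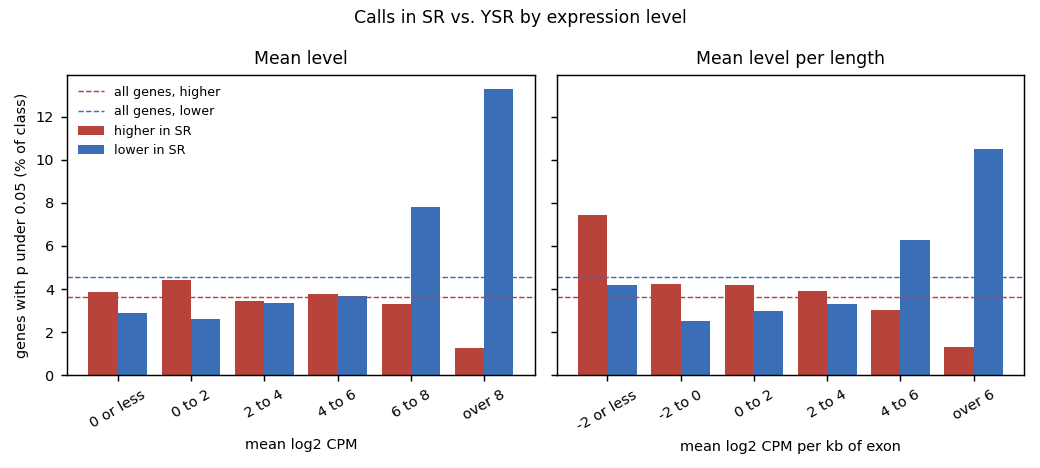
Share of genes with p under 0.05 in SR vs. YSR, higher or lower in SR rats, by class of mean log2 CPM (left) and of mean log2 CPM per kb of exon (right); dashed lines give the shares over all genes tested. The share of lower genes is 13.3% above 8 log2 CPM and 10.5% above 6 log2 CPM per kb of exon, against 4.55% over all genes; all libraries of both groups are used, and with the letter R alone these shares are 11.5% and 7.27%, against 4.20%.

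The median change of long genes had opposite signs in the cohorts. Of 356 genes that span over 300 kb, 35 were lower (9.83%, against 4.55% of all genes) and 11 higher (3.09%, against 3.62%) in SR rats. Their median log2 fold change was -0.03. With the letter R alone, 35 of the 356 genes were lower (9.83%, against 4.20% of all genes) and 8 higher (2.25%, against 3.29%). Within cohort XII, 50 of them were lower (14%, against 5.44% of all genes) and 7 higher (1.97%, against 5.10%) with a median of -0.09, whereas within cohort XIII 1 was lower (0.281%, against 2.29%) and 19 higher (5.34%, against 2.13%) with a median of 0.03. The direction over both cohorts was thus that of cohort XII, and the difference between the cohorts was not tested for this class. Genes with a span between 3 and 10 kb went the opposite way, with a median of 0.02 within cohort XII and -0.02 within cohort XIII.

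The genes of the mitochondrial genome could be found by their chromosome label, and 29 of 35 were tested. Of these, 0 were higher and 1 was lower in SR rats at an unadjusted p-value under 0.05, or 3.45% against 4.55% of all genes, and the median log2 fold change was -0.03. It was 0.02 within cohort XII, -0.05 within cohort XIII and -0.14 with the letter R alone, so that its sign differed between the cohorts. Among the 13 genes over 100 CPM, log2 fold changes lay between -0.14 and 0.00. Mitochondrial genes took between 6.66% and 9.69% of the counts in SR rats (median 7.85%) and between 7.16% and 8.72% in YSR rats (median 8.04%). The ranges overlapped, with the highest share in SR XII-L05 and the lowest in SR XIII-R07.

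Calls were spread over the chromosomes. On chromosome 6, 30 genes were higher (4.20%) and 54 lower (7.55%) of 715, on chromosome 2 35 higher (3.39%) and 65 lower (6.30%) of 1032, and on chromosome X 10 higher (1.83%) and 33 lower (6.04%) of 546, against 3.62% and 4.55% of all genes. On chromosome 12 the order was the other way, with 26 higher (4.98%) and 15 lower (2.87%) of 522. Within cohort XII, 85 genes of chromosome 2 (8.24%) and 58 of chromosome 6 (8.11%) were lower, against 5.44% of all genes. Within cohort XIII these were 19 (1.84%) and 17 (2.38%), against 2.29%. On chromosome X, 63 genes were lower (11.5%, against 5.44% of all genes) and 16 higher (2.93%, against 5.10%) within cohort XII and 6 lower and 6 higher within cohort XIII (1.10% each, against 2.29% and 2.13%). With the letter R alone, 18 genes of chromosome X were lower (3.30%, against 4.20% of all genes) and 12 higher (2.20%, against 3.29%), so its larger share of lower genes was not found without the letter L libraries. Of 15765 pairs of tested genes that follow each other on a chromosome, both members were called before adjustment in 122, with the same direction in 84 (68.9%), against 52.8% of all such pairs. Of the 110 pairs whose positions do not overlap, 75 had the same direction (68.2%). Genes and their neighbors are not independent replicates, and these shares are descriptions.

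The cohorts have no SR or YSR rat in common, so the direction in one can be read in the other. Before adjustment, 1665 genes had p under 0.05 within cohort XII (10.5%) and 699 within cohort XIII (4.42%), and 0 passed after adjustment of edgeR's p-values in either. Of 805 genes higher in SR rats of cohort XII, 476 were above 0 in cohort XIII (59.1%), against 52.4% of all genes that were above 0 in cohort XII. Of 860 lower genes, 536 were below 0 in cohort XIII (62.3%, against 52.9%). Read the other way, 200 of 337 genes higher in cohort XIII were above 0 in cohort XII (59.3%, against 53.0%) and 240 of 362 lower genes below 0 (66.3%, against 52.3%). The direction of most calls was therefore shared somewhat more often than that of all genes, and many calls of one cohort had the opposite sign in the other. Both cohorts called 94 genes in the same direction. These were 12.2% of the higher and 14.6% of the lower calls of cohort XIII (against 5.10% and 5.44% of all genes). They were 5.09% and 6.16% of those of cohort XII (against 2.13% and 2.29%). Called in opposite directions were 29 genes. Of the 805 higher calls of cohort XII, 17 were called lower in cohort XIII, against 2.29% of all genes. Of its 860 lower calls, 12 were called higher in cohort XIII, against 2.13% of all genes. The sizes were smaller when read in the other cohort, with a median log2 fold change of 0.28 for the higher genes of cohort XII and of 0.03 for the same genes in cohort XIII. Across genes, Pearson's r of the log2 fold changes was 0.267, and 0.137 over the 12145 genes with a mean log2 CPM over 2, where genes are not independent replicates and all libraries were normalized together. The p-values of both cohorts came from the same fit with a shared spread per gene. A gene of low spread is thus more easily called in both cohorts. No gene differed between the cohorts at an adjusted p-value under 0.05 by edgeR's test, with 812 at an unadjusted p-value under 0.05.

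With the letter R alone (4 SR and 5 YSR rats), 1183 genes had p under 0.05 before adjustment (7.49%), 519 of them higher and 664 lower, and 0 passed after adjustment of edgeR's p-values. Within the SR group, rats with the letter L differed from those with R in 1144 genes before adjustment (7.24%, p under 0.05) and in 34 after adjustment of edgeR's p-values (0.215%). Of these 34 genes, 18 belonged to the list of 72 genes at least 1.7-fold higher in SR than in YSR rats, which holds 0.456% of all genes. To the list of 34 lower genes (0.215% of all genes) 0 belonged. Both contrasts use the same SR rats, so a gene high in the letter L rats is raised in both. Nothing is therefore read from this overlap.

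SS and YSS rats give the contrast of METH and saline at matched shocks in sensitive rats. In it, 675 genes had p under 0.05 before adjustment (4.27%). Of 572 genes higher in SR than in YSR rats, 364 were also above 0 in SS vs. YSS (63.6%), against 54.3% of all genes above 0 in SR vs. YSR. Of 719 lower genes, 385 were below 0 (53.5%, against 49.1%). Both contrasts called 32 genes as higher, or 5.59% of the higher calls in SR vs. YSR (where 2.30% of all genes were higher in SS vs. YSS) and 8.79% of those in SS vs. YSS (where 3.62% of all genes were higher in SR vs. YSR). They called 9 as lower, or 1.25% (against 1.97%) and 2.89% (against 4.55%), so that the shares lay above those of all genes for higher and below them for lower calls. This was not tested. Both contrasts came from the same fit with a shared spread per gene, so a gene of low spread is more easily called in both. The shares of all genes are thus no neutral baseline for double calls. A further 23 genes were called in opposite directions. Of the 572 higher genes, 14 were called lower in SS vs. YSS, where 1.97% of all genes were lower. Of the 719 lower genes, 9 were called higher there, where 2.30% of all genes were higher. The median log2 fold change of the 719 lower genes was -0.18 in SR vs. YSR and -0.005 in SS vs. YSS. The difference between the contrasts had p under 0.05 in 857 genes before adjustment (5.43%), and no gene passed after adjustment by edgeR's test or by DESeq2.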

How the data were processed

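Poly(A)-selected RNA was sequenced as paired ends from 30 rats. The authors deposited raw read counts per Ensembl gene. The submitters' processing notes name bcl2fastq 2.17, Trimmomatic 0.36, STAR 2.5.2b and featureCounts of Subread 1.5.2. The genome build and use of strand are not given in the sources used here, so overlapping genes may share reads. From these counts, edgeR 4.0.16 (R 4.3.3) was fitted to all 30 libraries with the group as factor (TMM, default filter by group, quasi-likelihood test, Benjamini-Hochberg adjustment), and SR vs. YSR was a contrast of this fit. Cohort and letter contrasts came from cell means. CPM are TMM-normalized and log2 CPM used a prior count of 2. Permutation tests took all arrangements of mean log2 CPM. Standard errors were derived from the F statistic. No library was a repeat of another: over 11895 genes with at least 50 counts in each of the 12 libraries, same-group pairs had chi-square values of 5.98 to 26.9 per degree of freedom, where sampling noise gives 1. At the lowest depth, 3 counts equal 0.206 CPM. Genes were named by their adjusted p-value under 0.05, and rules and lists that need symbols could not be used. Members and lists were chosen with earlier results of these data known. Alternatives included DESeq2 1.42.0, other size factors and filters, subsets of libraries and 12 fits without 1 library each. The code was tested on simulated data.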

Additional observations from a re-analysis of the deposited data

Results flagged for a closer look

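Totals, detected genes, the shares of counts on chromosomes X, Y and MT, the share held by genes over 8 log2 CPM and the CPM of the 5 genes described were looked at in SR and in YSR rats, or 22 groups of values. In these values, no rat lay far enough from the nearest other rat of its group to pass Dixon's criterion, where chance alone passes about 1 in 20. The first principal component, on which YSR XIII-R08 stood apart from the other YSR rats, was not among them. No described gene differed in its SR vs. YSR change between cohorts XII and XIII, or from its SS vs. YSS change, at an adjusted p-value under 0.05 by edgeR's test.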

How the results depend on the processing

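All 4 adjusted genes kept their direction in the 12 fits without 1 library and in the 10 other fits. The number of adjusted genes was 32 with DESeq2, among them all 4, 3 with cohort as a covariate, all of them among the 4 and without the gene on chromosome 9 (adjusted p = 0.0577 by edgeR's test), 4 in a fit of the SR and YSR libraries alone, of which 2 were among the 4 while ENSRNOG00000012371 and ENSRNOG00000014751 did not pass (adjusted p of 0.0734 and 0.07 by edgeR's test), and 0 within cohort XII, within cohort XIII, with the letter R alone and in a fit of only the SR and YSR libraries with R, which was added after the data were seen. Without 1 library it was between 0 and 12. The numbers past 1.7-fold (72 higher, 34 lower) were 311 and 271 with all genes of at least 1 count, 11 and 6 with at least 10 counts in every library, 142 and 57 within cohort XII, 114 and 61 at 1.5-fold, and 43 and 12 at 2-fold. The higher genes were 41 in a fit of the 12 SR and YSR libraries and 44 in the added fit, and the lower ones 62 within cohort XIII. Without 1 library they were between 68 and 196 higher and between 32 and 45 lower. At p under 0.05 alone, cohort XIII gave 337 higher and 362 lower genes, and fits without 1 library between 510 and 849 and between 529 and 770. Of genes over 8 log2 CPM, 26 were lower within cohort XIII and 17 higher within cohort XII. Without 1 library between 48 and 103 were lower and between 5 and 19 higher. Fewer libraries or another set of genes tested are part of these settings, and other causes were not tested. No paired analysis was made because SR and YSR share no replicate code and the yoked pairs are not in the labels. Some codes follow each other within a cohort and letter, such as SR XIII-R07 and YSR XIII-R08, but no label ties them as pairs. With 7 and 5 rats, low counts limit genes under 1 CPM.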
